A study of Mus musculus with 8 samples.

Results

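Actin and the genes that build, anchor and regulate its filaments were described in cultured mouse peritoneal macrophages. The 10 genes were listed by symbol and looked up in the deposited expression table: Actb and Actg1 (the cytoplasmic beta and gamma actins), Srf, Pfn1, Cfl1, Flna, Myh9, Vcl, Tln1 and Zyx. All 10 were found among 24339 symbols, and all 10 were among the 10447 genes that averaged 1 FPKM or more, the genes used in the tests (FPKM are fragment numbers per length of transcript and per size of library). The list was drawn up with FPKM values of the same 8 libraries known, so its members were in part selected on those values, and which of them decided is not recorded. The levels of the 10 genes and their differences are therefore given as a description, with standard errors and with no p-value.

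Cells came from C57BL/6 mice, either wild type or α7nAChR-/-, the latter lacking the alpha7 nicotinic acetylcholine receptor encoded by Chrna7. They were cultured overnight, given 10 µM nicotine or vehicle for 15 min, and then 100 ng/ml lipopolysaccharide (LPS) or vehicle for 4 h. All 8 combinations of genotype, nicotine and LPS were sequenced, with 1 library per group. The labels do not give the age or sex of the mice, or whether cells of several mice were pooled. The design asks how nicotine and LPS change gene expression, and whether the receptor's absence alters this. No group had a replicate, so no group could be tested alone. Effects were averaged over the 4 libraries of each arm, and their error is the departure of the libraries from additive effects of LPS, nicotine and genotype.

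Actin monomers polymerise into filaments that give a macrophage its shape and drive its spreading, migration and phagocytosis. Serum response factor, the product of Srf, is a transcription factor that binds the CArG box, and its cofactors of the MRTF family are held inactive by free actin monomers, so the state of actin feeds back on the transcription of actin and of many actin-binding proteins. Profilin (Pfn1) loads monomers for assembly and cofilin (Cfl1) severs filaments. Filamin A (Flna) crosslinks filaments, the heavy chain of non-muscle myosin IIA (Myh9) pulls on them, and talin (Tln1), vinculin (Vcl) and zyxin (Zyx) tie them to integrins at adhesions. Actb is also widely used as a reference transcript.

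The CArG box was searched in the 300-base promoter windows of RefSeq (build GRCm38.p6, 250 bases before to 50 after the gene start, both strands, no mismatch), because it is the site that the product of Srf binds. Promoters were found for 9 of the 10 members, Actb being the exception, and 3 of the 9 held at least 1 box, against 535 of all 32851 promoter windows (1.63%) and 131 of 10284 windows of the tested genes (1.27%). The 3 promoters are shown from 250 to 51 bases before the start, 200 bases each, 5′ to 3′ on the gene's strand, with the CArG boxes in capitals:
Srf, chr17:46556213-46556412, minus strand: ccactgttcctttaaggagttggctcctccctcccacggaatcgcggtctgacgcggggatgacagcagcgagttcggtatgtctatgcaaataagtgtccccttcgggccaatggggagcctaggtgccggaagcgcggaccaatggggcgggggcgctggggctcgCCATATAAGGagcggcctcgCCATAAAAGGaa
Actg1, chr11:120348546-120348745, minus strand: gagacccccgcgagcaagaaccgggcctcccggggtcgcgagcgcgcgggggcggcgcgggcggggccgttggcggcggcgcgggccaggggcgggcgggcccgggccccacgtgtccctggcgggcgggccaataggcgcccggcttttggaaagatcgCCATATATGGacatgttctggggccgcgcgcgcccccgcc
Vcl, chr14:20929148-20929347, plus strand: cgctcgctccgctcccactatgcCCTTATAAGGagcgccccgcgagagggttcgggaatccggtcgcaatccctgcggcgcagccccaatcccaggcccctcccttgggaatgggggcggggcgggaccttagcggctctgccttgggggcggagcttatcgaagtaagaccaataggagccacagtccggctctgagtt
Srf itself held 2 boxes, CCATATAAGG beginning 82 bases and CCATAAAAGG beginning 62 bases before its start. Actg1 held CCATATATGG at 90 bases and Vcl held CCTTATAAGG at 227 bases. A match is a description of the letters only, and binding was not measured. No box was found in the windows of Pfn1, Cfl1, Flna, Myh9, Tln1 or Zyx. The Flna window, chrX:74246485-74246784, lies inside the gene body given below, so the 5′ end of that gene body was not searched.

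Summed FPKM ranged from 413052 to 854016 among the libraries and was highest in both libraries given LPS without nicotine, while the median FPKM of the tested genes lay between 9.66 and 10.2. How the values were scaled between libraries is not stated. Other scalings turn many of the LPS differences below and some of the nicotine differences. Values under them are given for many of these differences but not for all. Chrna7 was listed at 0 FPKM in all 8 libraries, so its level checks no genotype label. All 10 macrophage markers were above the filter, with summed levels of 20540 to 34890 FPKM, and smooth muscle markers, which include actin-binding genes, summed to at most 0.926 FPKM. Mesothelial and fibroblast markers summed to 15.8 FPKM in the wild type library given nicotine and LPS, where Dcn reached 10.7 FPKM, and to at most 2.69 in the other 7. The labels do not say whether libraries came from separate cultures or mice. With 1 library per group, p-values below rest on the departure of these libraries from the fitted model and not on replicates.

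Beta-actin showed the widest nicotine difference of the 10 genes in average log2 terms. Without nicotine, Actb (chr5:142903115-142906754, minus strand; positions are GENCODE M21 gene bodies, GRCm38) was 1272 FPKM in wild type vehicle, 1343 in α7nAChR-/- vehicle, 2879 in wild type LPS and 4726 in α7nAChR-/- LPS. With nicotine it was 491 in wild type and 488 in α7nAChR-/- cells without LPS, and 425 and 537 FPKM with LPS. Every library with nicotine was below every library without it. Actb was thus 2.59-fold (wild type) and 2.75-fold (α7nAChR-/-) lower with nicotine at rest, and 6.77-fold and 8.80-fold lower with nicotine under LPS. The average nicotine difference was -2.18 ± 0.33 (SE) in log2(FPKM + 1). Among all genes in a library, Actb ranked between 19 and 28 by FPKM without nicotine and between 151 and 227 with it.

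The LPS difference of beta-actin also varied with nicotine. Without nicotine, Actb was 2.26-fold (wild type) and 3.52-fold (α7nAChR-/-) higher with LPS, whereas with nicotine the ratios of LPS to no LPS were 0.866 and 1.10. The difference between the nicotine effect with LPS and without it was -1.53 ± 0.27 log2 as deposited, -0.87 after rescaling to equal sums and -0.41 with quantile scaling. When each library was rescaled to the same sum, the nicotine differences of Actb were -1.73 and -1.70 log2 at rest and -2.48 and -2.69 under LPS, and the LPS differences without nicotine shrank to 0.23 in wild type and 0.87 in α7nAChR-/- cells. The average LPS difference of 0.73 ± 0.33 log2 became -0.17 with quantile scaling, so its direction depends on the scaling.

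Gamma-actin, which differs from beta-actin by only a few residues, had another pattern. Actg1 (chr11:120345690-120348542, minus strand) was 344, 412, 563 and 339 FPKM in wild type cells given vehicle, nicotine, LPS and both, and 415, 471, 897 and 532 FPKM in α7nAChR-/- cells. It was 1.20-fold and 1.13-fold higher with nicotine at rest but 1.66-fold and 1.69-fold lower with nicotine under LPS. Libraries with and without nicotine overlapped. The differences at rest turn with the scaling: they were 0.26 and 0.18 log2 as deposited, -0.09 and -0.06 after rescaling to equal sums and -0.26 and -0.15 with quantile scaling. Under LPS all 3 other scalings kept Actg1 lower with nicotine in both genotypes.

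The ratio of Actb to Actg1 within a library is free of any scaling by 1 factor per library, though not of quantile scaling. It was 3.70 and 3.23 in vehicle (wild type, then α7nAChR-/-) and 5.12 and 5.27 with LPS alone. With nicotine it was 1.19 and 1.03 at rest and 1.25 and 1.01 under LPS. The ratio was therefore close to equal amounts of both actins in all 4 libraries with nicotine and at least 3.23 in all 4 without. Summed, the 2 actins made up 0.391% to 0.659% of all FPKM without nicotine and 0.116% to 0.183% with it.

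**Figure D1:**
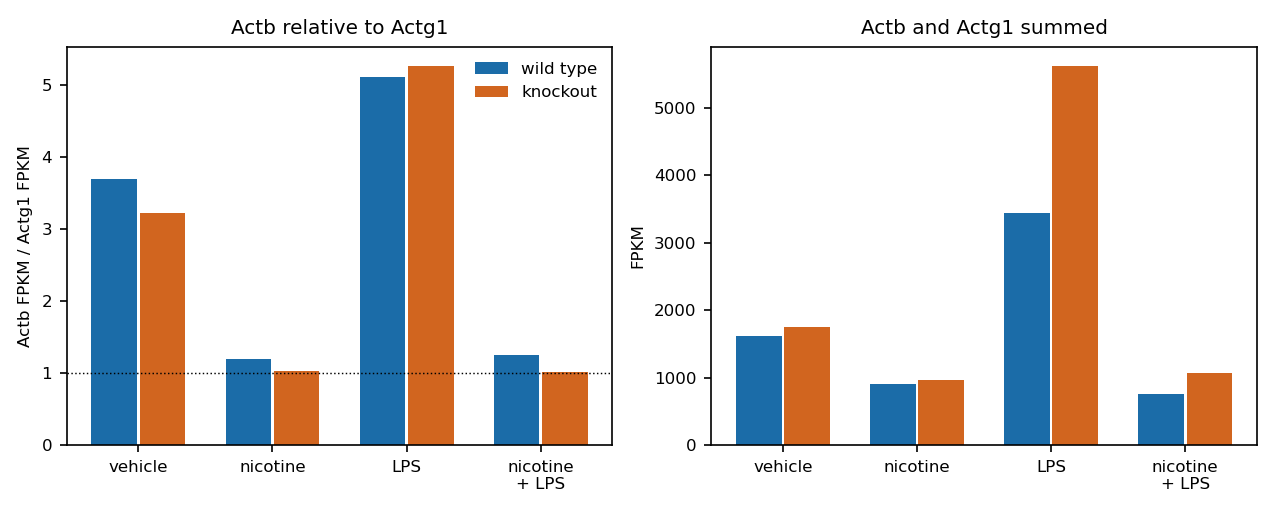
Bars give, for each treatment (x axis) and genotype (colour), the FPKM of Actb divided by that of Actg1 (left) and the sum of both in FPKM (right), 1 library per bar and so no error bars. The dotted line marks equal levels. The ratio is 1.01 to 1.25 in the 4 libraries with nicotine and 3.23 to 5.27 in the 4 without, and the sum is highest, at 5623 FPKM, in α7nAChR-/- cells given LPS alone.

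The 2 actin transcripts share sequence with other genes, and the way the authors assigned such reads is not stated. Of the 50-base words in the Actb transcript (GENCODE M21), 14.2% also occur in transcripts of other genes, chiefly Lrrc58, and 30 of 1871 occur in Actg1. For Actg1 the share is 56.7%, over 22 other genes that are mostly pseudogenes, so its level is the least certain of the 10. The share is 9.11% for Cfl1, 1.12% for Myh9 and 0 for the other 6 members. Since the library kit does not mark strand, exons that overlap on opposite strands share reads too: Tln1 overlaps Creb3 (12.3 to 31.1 FPKM), Cfl1 overlaps Snx32 (at most 1.66 FPKM) and Zyx overlaps Epha1 (at most 0.219 FPKM).

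Among 15 genes often used as references, with the 2 actins added, Actb had the widest range over the 8 libraries, an 11.1-fold span between lowest and highest. Actg1 was 10th of the 17, with a 2.65-fold span. The narrowest spans were those of Tbp (1.49-fold), Hprt (1.67-fold) and Sdha (1.89-fold), which encode the TATA-binding protein, a purine salvage enzyme and a subunit of succinate dehydrogenase. Gapdh, a glycolytic enzyme that is normally abundant, was listed at only 1.34 to 8.90 FPKM, so its value may not be a usable estimate. Of all tested genes, 84.9% had a narrower range than Actb.

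The other actin genes were near 0. Of 5 listed (the muscle actins Acta1, Acta2, Actc1 and Actg2, and the actin-like Actbl2), none reached a mean of 1 FPKM, and Actc1 and Actbl2 were listed at 0 throughout.

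Srf differed with nicotine in the direction opposite to Actb. The gene lies at chr17:46548329-46556175 on the minus strand. In wild type cells it was 8.63 FPKM in vehicle, 13.0 after nicotine, 7.35 after LPS and 13.5 after both agents. In α7nAChR-/- cells the same libraries held 6.72, 11.1, 7.21 and 10.6 FPKM. All 4 libraries with nicotine were above all 4 without, by 1.50-fold and 1.65-fold at rest and 1.84-fold and 1.47-fold under LPS. The average nicotine difference was 0.62 ± 0.12 log2, and it stayed between 0.62 and 0.67 with rescaling or quantile scaling. The gap between the arms ran from 8.63 FPKM, the highest without nicotine, to 10.6, the lowest with it. The LPS difference of Srf was small at rest and in both directions, 7.35 against 8.63 FPKM in wild type and 7.21 against 6.72 in α7nAChR-/- cells. After rescaling to equal sums these LPS differences were -1.10 and -0.78 log2. Of the 3 members with a CArG box in the window shown, Srf was higher with nicotine in 4 of 4 pairs, Vcl in 4 of 4 and Actg1 in 2 of 4, where 29.5% of tested genes were higher in all 4. The Vcl count includes α7nAChR-/- cells at rest, where the values were 9.81 and 9.79 FPKM and the difference was negative with each of the 3 other scalings (-0.03 to -0.23 log2). Actg1 was higher in 0 of 4 after rescaling or quantile scaling, and Srf stayed higher in 4 of 4.

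Profilin and cofilin, which load and sever filaments, diverged. Pfn1 (chr11:70651850-70654644, minus strand) was 531, 391, 536 and 306 FPKM in wild type cells given vehicle, nicotine, LPS and both, and 731, 574, 775 and 385 FPKM in α7nAChR-/- cells. It was lower with nicotine in all 4 pairs, by 1.36-fold and 1.27-fold at rest and 1.75-fold and 2.01-fold under LPS. The average was -0.65 ± 0.15 log2, and the arms overlapped. The LPS differences of Pfn1 without nicotine were 0.01 and 0.08 log2 as deposited, and -0.93 and -0.86 after rescaling to equal sums.

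Cfl1 (chr19:5490455-5495201, plus strand) was 500, 671, 1059 and 1026 FPKM in wild type cells in the same order, and 706, 908, 1261 and 1193 FPKM in α7nAChR-/- cells. All 4 libraries with LPS were above all 4 without, by 2.12-fold and 1.79-fold without nicotine and 1.53-fold and 1.31-fold with it. The average LPS difference was 0.73 ± 0.14 log2 as deposited, 0.12 after rescaling to equal sums and -0.02 with quantile scaling, so its direction turns with the scaling. The nicotine differences of Cfl1 under LPS were -0.05 and -0.08 log2 as deposited, and 0.23 and 0.36 after rescaling. The ratio of Pfn1 to Cfl1, which is also free of scaling by 1 factor per library, was highest in vehicle, at 1.06 and 1.04, and lowest with nicotine and LPS together, at 0.298 and 0.323. In between were 0.582 and 0.632 with nicotine and 0.506 and 0.615 with LPS, so the ratio was lower after either agent than in vehicle and lowest after both.

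Filamin A was lower with nicotine throughout. Flna (chrX:74223461-74249820, minus strand) was 79.1 and 102 FPKM in vehicle (wild type, then α7nAChR-/-) and 86.9 and 125 with LPS, against 47.3 and 60.3 with nicotine and 51.4 and 62.7 with both. The 4 libraries with nicotine lay below the 4 without. The ratios were narrow, 1.67-fold, 1.69-fold, 1.69-fold and 1.99-fold lower, and the average was -0.80 ± 0.13 log2. The LPS differences of Flna were 0.14 and 0.29 log2 without nicotine and 0.12 and 0.06 with it. After rescaling to equal sums they were negative in all 4 pairs, with an average of -0.46.

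Non-muscle myosin showed another pattern. Myh9 (chr15:77760587-77842175, minus strand) was highest with nicotine alone, at 122 FPKM in wild type and 105 in α7nAChR-/- cells. It was 72.1 and 69.9 FPKM in vehicle, 52.5 and 50.4 with LPS, and 48.0 and 46.6 with both. All 4 libraries with LPS were below all 4 without. LPS went with 1.37-fold and 1.39-fold lower values without nicotine and 2.53-fold and 2.26-fold lower values with it. The average LPS difference was -0.85 ± 0.19 log2, and -1.47 after rescaling to equal sums. The nicotine difference under LPS was slight, 48.0 against 52.5 FPKM and 46.6 against 50.4. Its direction turned with the scaling, from -0.13 and -0.11 log2 as deposited to 0.14 and 0.33 after rescaling.

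**Figure D2:**
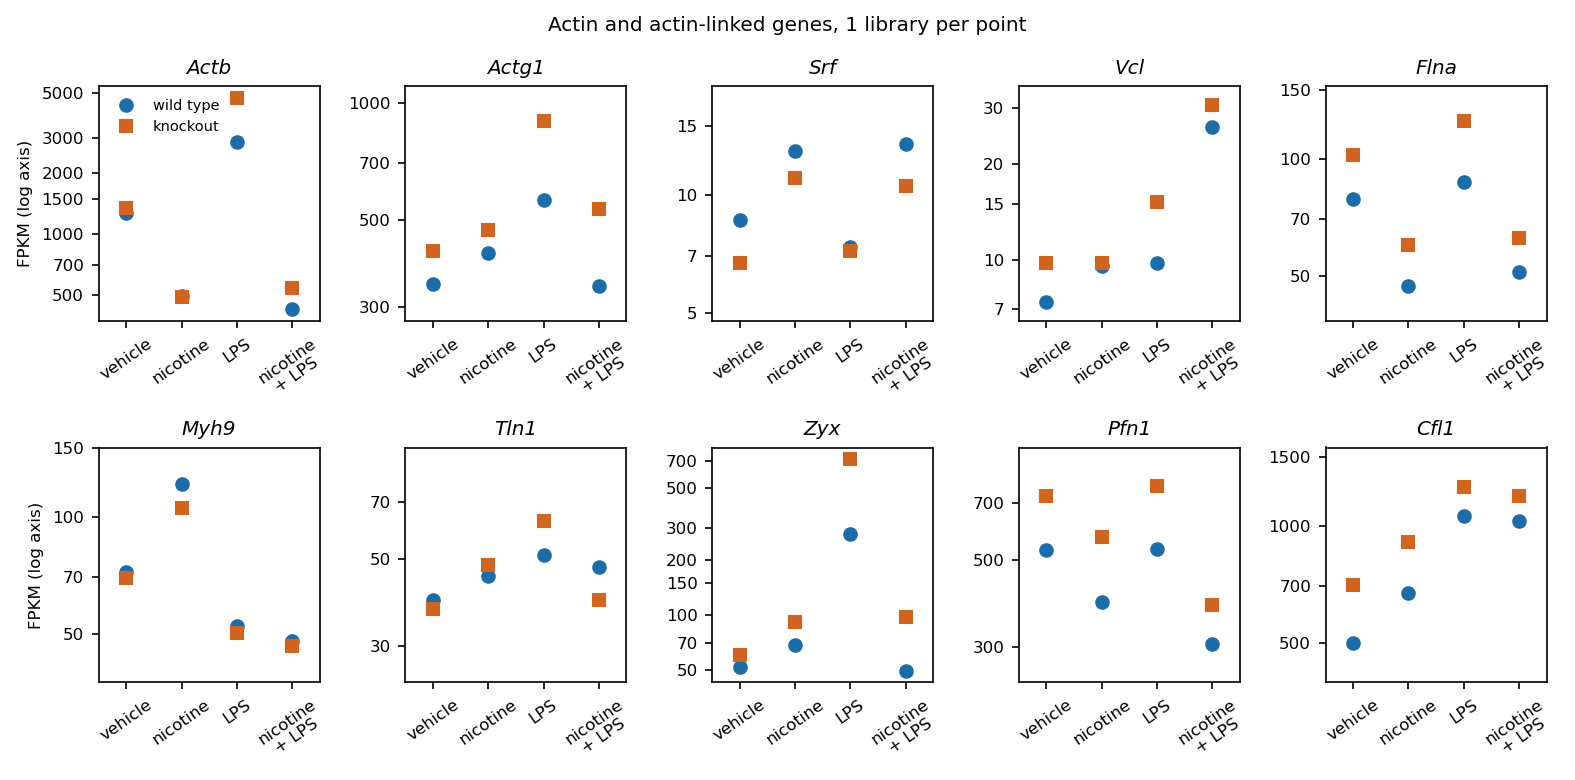
Each panel gives the FPKM of 1 gene (log axis, its own range) in the 4 treatments, with circles for wild type and squares for α7nAChR-/- (knockout), 1 library per point. Actb and Flna are low and Srf is high in the 4 libraries with nicotine, Vcl is highest in the 2 libraries with nicotine and LPS, and Zyx is highest in the 2 with LPS alone.

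The 3 adhesion genes each had a pattern of their own. Zyx, which marks mature adhesions and stress fibres (chr6:42349630-42360213, plus strand), was 51.5 and 60.0 FPKM in vehicle, 68.1 and 91.8 with nicotine, 280 and 726 with LPS and 49.0 and 97.7 with both (wild type, then α7nAChR-/-). The 2 libraries with LPS alone stood far above the other 6. LPS alone gave 5.44-fold and 12.1-fold higher Zyx than vehicle. Under LPS, nicotine went with 5.72-fold and 7.43-fold lower Zyx, while at rest it went with 1.32-fold and 1.53-fold higher values. The wild type difference at rest was 0.40 log2 as deposited, 0.04 after rescaling and -0.10 with quantile scaling. In α7nAChR-/- cells the same difference was 0.60, 0.37 and 0.24 log2. The difference between the nicotine effects with and without LPS was -3.19 ± 0.39 log2, and it was -2.54 after rescaling and -2.42 with quantile scaling. The average LPS difference was 1.40 ± 0.65 log2, and it was 0.85 without the α7nAChR-/- LPS library and 0.87 without the α7nAChR-/- vehicle library.

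Vcl, whose product stiffens the link between talin and actin (chr14:20929398-21033676, plus strand), was highest where nicotine and LPS were combined. It was 7.40 and 9.79 FPKM in vehicle, 9.58 and 9.81 with nicotine, 9.78 and 15.3 with LPS and 26.2 and 30.7 with both. Both doubly treated libraries were above the other 6. LPS after nicotine gave 2.74-fold and 3.13-fold higher Vcl, and nicotine under LPS gave 2.68-fold and 2.01-fold higher Vcl, while nicotine alone gave 1.29-fold and 1.00-fold. The difference between the nicotine effects with and without LPS was 0.98 ± 0.24 log2 and was positive under all 3 other scalings (0.92 with quantile scaling and 1.62 after rescaling to equal sums). Exons of Vcl overlap those of Ap3m1 on the other strand. Ap3m1 itself was 7.67 to 11.1 FPKM with nicotine and 16.2 to 21.5 without. Without nicotine the LPS differences of Vcl were 0.36 and 0.59 log2, and -0.51 and -0.29 after rescaling. Mesothelial and fibroblast markers summed to 15.8 FPKM in the wild type library given both agents and to 2.14 in the α7nAChR-/- one, and their part in the Vcl levels was not tested.

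Tln1 (chr4:43531519-43562691, minus strand) varied least of the 10 genes, with a 1.68-fold span that only 6.98% of tested genes undercut. It ranged from 37.2 FPKM in α7nAChR-/- vehicle to 62.7 in α7nAChR-/- LPS, and the arms of every factor overlapped. Talin was 1.15-fold and 1.30-fold higher with nicotine at rest, and under LPS it was lower, 47.8 against 51.1 FPKM in wild type and 39.2 against 62.7 in α7nAChR-/- cells. In wild type cells both directions turned after rescaling, to -0.15 log2 at rest and 0.18 under LPS.

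Across the 10 genes, several had a different direction with nicotine at rest than under LPS. Without LPS, 7 members were higher with nicotine in both genotypes and 3 lower (Actb, Flna and Pfn1), while 45.7% and 43.1% of all tested genes were higher and lower in both genotypes. With LPS, 2 were higher (Srf and Vcl) and 8 lower, against 41.5% and 43.7% of all tested genes. The 5 members that changed sides were Actg1, Myh9, Tln1, Zyx and Cfl1, and 18.8% of tested genes did so. After rescaling to equal sums 1 member, Zyx, changed sides, and with quantile scaling none did. The nicotine counts turn with the scaling as well, here counting differences of at least 0.01 log2. After rescaling, 4 were higher and 4 lower at rest, and 4 were higher and 5 lower under LPS. With quantile scaling, 2 were higher and 4 lower at rest, and 2 were higher and 5 lower under LPS. With LPS in place of vehicle, 8 members were higher in both genotypes without nicotine and 1, Myh9, was lower, against 46.6% and 39.9% of tested genes. After nicotine, 3 were higher with LPS (Cfl1, Flna and Vcl) and 2 lower (Myh9 and Pfn1), against 37.0% and 39.0%. These LPS counts turn with the scaling: after rescaling to equal sums, 2 were higher (Actb and Zyx) and 6 lower without nicotine, and 2 were higher and 8 lower after it. In all 4 LPS pairs, 3 members were higher (Vcl, Flna and Cfl1; 26.8% of tested genes) and 1, Myh9, was lower (23.6%). After rescaling, none was higher in all 4 LPS pairs and 5 were lower (Srf, Flna, Myh9, Tln1 and Pfn1), and with quantile scaling Vcl was higher and Flna, Myh9 and Pfn1 lower. In all 4 nicotine pairs, Srf and Vcl were higher (29.5%) and Actb, Flna and Pfn1 were lower (28.0%). After rescaling, Srf, Myh9 and Cfl1 were higher in all 4 nicotine pairs and Actb, Actg1, Flna and Pfn1 lower. With quantile scaling Srf was higher and Actb, Actg1, Flna and Pfn1 were lower.

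**Figure D3:**
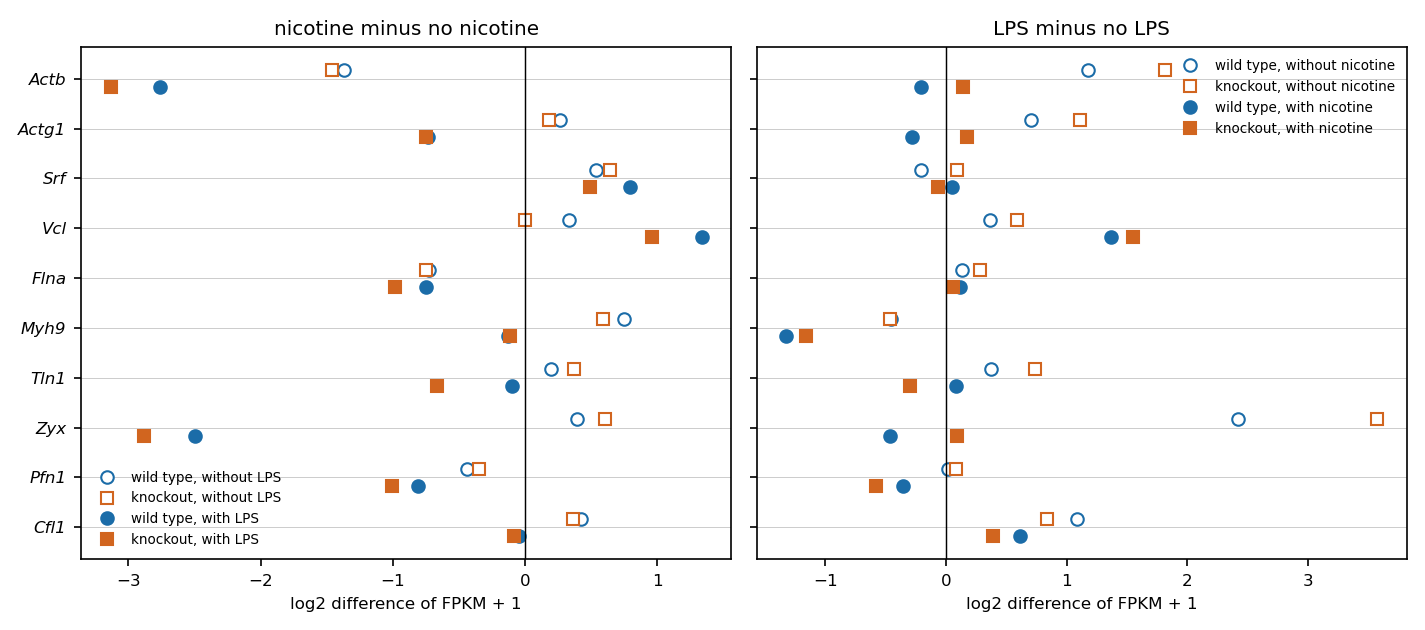
Points give the log2 difference in FPKM + 1 between 2 libraries that differ only in nicotine (left) or only in LPS (right), for each gene on the vertical axis, with circles for wild type, squares for α7nAChR-/- (knockout) and filled symbols where the other agent was present. Actb and Zyx have the lowest nicotine differences, at -3.14 and -2.88 in α7nAChR-/- cells under LPS, and Vcl lies to the right of 0 in all 4 LPS pairs.

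In the fit over all genes, 4 of 10 members passed the threshold for the average nicotine difference, Srf higher and Actb, Flna and Pfn1 lower, where 46.3% of all tested genes passed in either direction (24.1% higher, 22.2% lower). The median over the members was -0.15 log2, beside -0.04 over all tested genes. The same 4 passed with the 3 other scalings, both other pseudocounts, both other filters and each library left out, where Vcl passed as well without the α7nAChR-/- nicotine library. With nicotine as the only term Pfn1 did not pass. Of the members, 3 had nicotine arms that did not overlap (Srf above, Actb and Flna below), against 32.1% of tested genes (17.7% above, 14.4% below).

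For LPS, 3 of 10 members passed, Vcl and Cfl1 higher and Myh9 lower, against 27.0% of all tested genes (15.8% higher, 11.3% lower). The member median was 0.33 log2, beside 0.02 over all genes. The count was 0 without the α7nAChR-/- vehicle library, 1 without the α7nAChR-/- LPS library, and 5 after rescaling, where the genes were Srf, Flna, Myh9, Tln1 and Pfn1. Without any of the other libraries except the wild type LPS one it was 1 or 2. Calls over all tested genes moved as well, from 2824 as deposited. They were 807 of 10361 without the α7nAChR-/- vehicle library and 940 of 10423 without the α7nAChR-/- LPS library. After rescaling they were 5265 of 10447. Changes in the member count are therefore not read as particular to the members. LPS arms did not overlap for 2 members (Cfl1 above, Myh9 below), against 17.4% of tested genes (9.83% above, 7.55% below). For the difference between nicotine effects with and without LPS, 5 of 10 passed (Vcl higher; Actb, Actg1, Myh9 and Zyx lower), against 30.1% of all genes (12.8% higher, 17.3% lower), with a member median of -0.59 log2 beside -0.11. The number called over all tested genes moved with the setting too. It was 3143 as deposited, 3925 after rescaling and 2828 with quantile scaling. It also fell without any single library except the α7nAChR-/- LPS one. Changes in the member count are thus not read as particular to the members. The member count fell to 3 after rescaling (Actb, Vcl and Zyx). It was also 3 with quantile scaling (Vcl, Flna and Zyx), where Flna was 0.65 log2 against -0.12 as deposited. The count was 1 or 2 without any single library other than the 2 given LPS alone. Zyx passed in each of these fits and was the 1 gene left without the wild type library given both agents.

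No member passed for genotype in limma's test, where 1.10% of tested genes did (0.689% higher, 0.412% lower), and 3 members had an unadjusted p under 0.05, as had 12.4% of tested genes. Since the members were selected on these values, nothing is read from either count. In log2 terms, α7nAChR-/- minus wild type, the member median was 0.33 beside -0.01 over all tested genes. Actg1, Vcl, Flna, Zyx, Pfn1 and Cfl1 were higher in α7nAChR-/- cells in all 4 treatments, where 18.0% of tested genes were, and Srf and Myh9 were lower in all 4, where 17.5% were. Genotype and cell preparation cannot be told apart in this design, and the same direction in all 4 treatments does not separate them. The widest single gap was that of Zyx with LPS alone, 726 against 280 FPKM. No member had genotype arms that did not overlap, against 2.55% of tested genes (1.57% above, 0.976% below). Platelet markers summed to 965 to 1431 FPKM in α7nAChR-/- libraries and to 207 to 617 in wild type ones, mostly through Pf4, while Itga2b, Gp9 and Gp1ba were all under 1 FPKM. Their part in the genotype differences was not tested. Whether nicotine differences varied with genotype was not tested. The values of both genotypes are given side by side for each gene.

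Genes of the same pathways were taken from lists made by gene function, chosen with earlier results of these data known. They were called by limma's moderated test with Benjamini-Hochberg adjustment. The genes named were picked by size among those called, so their adjusted p-values describe these libraries and are not independent tests. Of all tested genes, 24.1% rose and 22.2% fell with nicotine, and 15.8% rose and 11.3% fell with LPS. The list of Srf cofactors and targets of Srf and MRTF had 16 of its 24 genes above the filter. Of these, 3 rose and 6 fell with nicotine, with a median of -0.51 log2. The 3 that rose were Elk4 (1.12 ± 0.12, adjusted p = 0.000882), Elk1 (0.97 ± 0.20, adjusted p = 0.00835) and Mkl2 (0.94 ± 0.16, adjusted p = 0.0039), which encode cofactors of Srf. Those that fell the most were Filip1l (-1.68 ± 0.22, adjusted p = 0.00157), the actin-binding calponin Cnn2 (-1.17 ± 0.25, adjusted p = 0.01) and the cofactor Elk3 (-0.97 ± 0.24, adjusted p = 0.0169). The CArG box was in 6 of the 31 promoter windows of this list (19.4%), those of Cnn2, Fhl1, Fhl2, Filip1l and Myl9. With each library left out in turn, 3 genes of the list rose with nicotine and 3 to 7 fell.

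With LPS, 7 of the 16 rose and 1 fell. Filip1l rose by 2.06 ± 0.22 (adjusted p = 0.00226), the tropomyosin Tpm4 by 1.66 ± 0.31 (adjusted p = 0.0136) and Cnn3 by 1.60 ± 0.24 (adjusted p = 0.00754), and the cofactor Mkl1 fell by 0.69 ± 0.18 (adjusted p = 0.0318). Mkl1 lost its call with no filter (adjusted p = 0.0613) and with any of 6 libraries left out (adjusted p from 0.0579 to 0.105). After rescaling to equal sums, 4 rose and 3 fell, and with each library left out 3 to 7 rose. Filip1l thus rose with LPS and fell with nicotine, as its pairs showed in 4 of 4 cases for each agent, though these pairs share libraries.

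Among genes of filament assembly and turnover, 32 of 36 were tested. With nicotine 3 rose and 10 fell (median -0.41 log2), beside 24.1% and 22.2% of all tested genes. The filament-elongation factor Vasp fell by 1.50 ± 0.29 (adjusted p = 0.00644), Coro1b by 1.22 ± 0.14 (adjusted p = 0.00098) and Evl by 1.11 ± 0.28 (adjusted p = 0.0172). Arpc5l and Arpc1a, subunits of the Arp2/3 complex that nucleates branches, rose by 0.66 ± 0.13 (adjusted p = 0.00637) and 0.46 ± 0.14 (adjusted p = 0.0365), and the cofilin paralogue Cfl2 by 0.60 ± 0.16 (adjusted p = 0.0204). Arpc1a lost its call after rescaling (adjusted p = 0.108), with quantile scaling (adjusted p = 0.265) and with any of 7 libraries left out, and Cfl2 with any of 5 (adjusted p from 0.0543 to 0.0686). With LPS 6 rose and 1 fell, Vasp (1.59 ± 0.29, adjusted p = 0.013), Hcls1 (1.18 ± 0.26, adjusted p = 0.022) and the thymosin Tmsb10 (1.08 ± 0.13, adjusted p = 0.00346) leading the rises and Coro1c falling (-1.47 ± 0.19, adjusted p = 0.00418). Rescaling turned the LPS counts to 2 higher and 14 lower, and quantile scaling to 1 and 9, so no direction is given for the list under LPS. Hcls1 lost its LPS call with both (adjusted p = 0.053 and 0.145) and Tmsb10 with quantile scaling (adjusted p = 0.145). The nicotine counts stayed at 2 higher and 11 lower after rescaling and 2 and 15 with quantile scaling, and with each library left out 1 to 2 rose and 5 to 9 fell.

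Of 25 crosslinkers, membrane linkers and myosins, 23 were tested. With nicotine 5 rose and 7 fell. The bundling proteins Fscn1 and Lcp1 fell by 2.44 ± 0.37 (adjusted p = 0.00276) and 1.75 ± 0.19 (adjusted p = 0.000916) and the myosin Myo1g by 1.59 ± 0.18 (adjusted p = 0.00107). Those that rose included Myo5a, an organelle motor (1.49 ± 0.20, adjusted p = 0.00162) and the alpha-actinin Actn4 (1.23 ± 0.15, adjusted p = 0.00134). With LPS 9 rose and 3 fell, and the rises were led by Marcksl1 (4.55 ± 0.30, adjusted p = 0.000495) and Marcks (2.47 ± 0.32, adjusted p = 0.00433), membrane-bound actin binders, and Fscn1 (1.98 ± 0.37, adjusted p = 0.0142). The falls were Myo1f (-2.06 ± 0.50, adjusted p = 0.0285), Myo5a (-1.31 ± 0.20, adjusted p = 0.007) and Myo9b (-0.69 ± 0.14, adjusted p = 0.0179). Myo1f lost its call with any of 4 libraries left out (adjusted p from 0.0536 to 0.0981). Fscn1 thus rose with LPS and fell with nicotine, and Myo5a did the reverse. After rescaling the LPS counts were 5 higher and 4 lower. With each library left out, 3 to 6 genes of the list rose with nicotine and 5 to 7 fell.

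**Figure D4:**
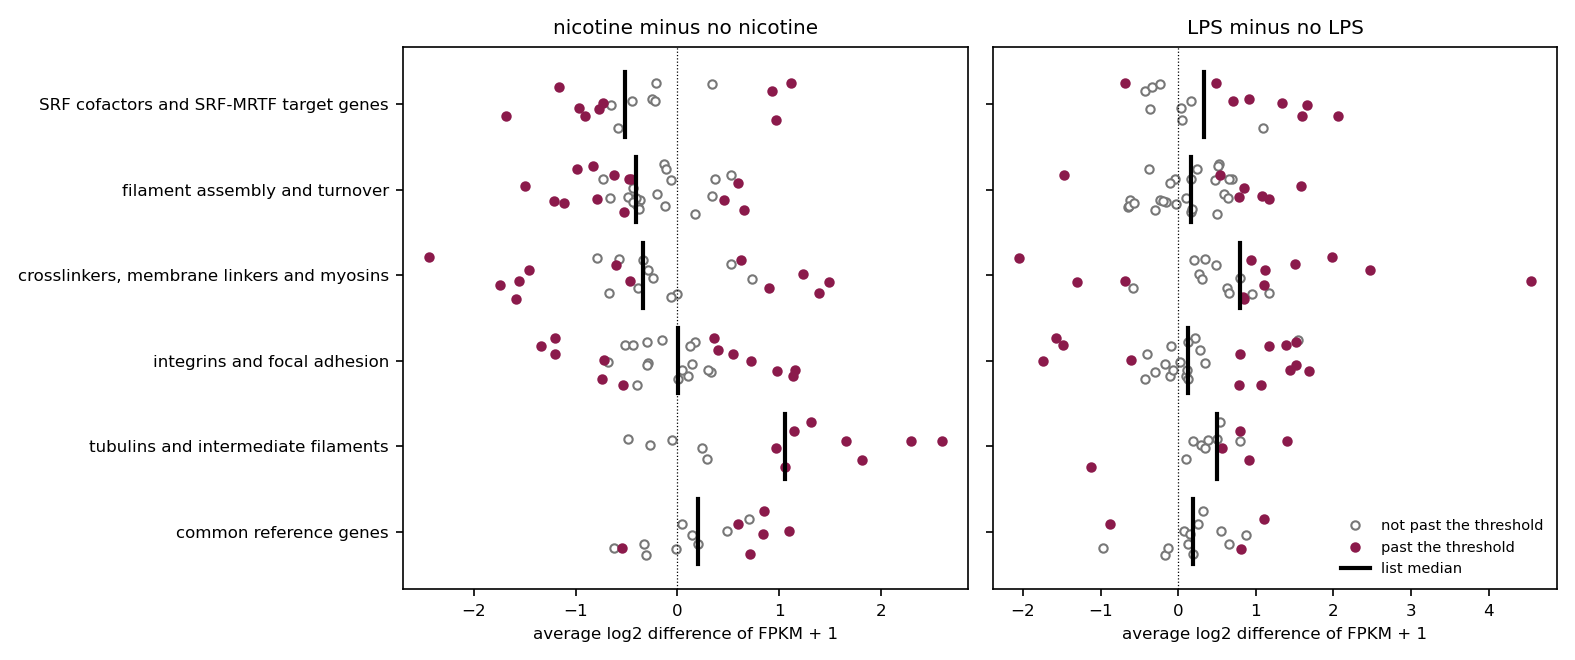
Each point is 1 tested gene of a list, placed by its average difference in log2(FPKM + 1) with minus without nicotine (left) or LPS (right), filled where limma's adjusted p is under 0.05, with a bar at the list median. The median of the tubulin and intermediate filament list stands at 1.06 for nicotine, while the medians of the Srf target and filament assembly lists are -0.51 and -0.41.

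Integrins and focal adhesion genes split evenly with nicotine, with 29 of 32 tested, where 24.1% of all tested genes rose and 22.2% fell. Nicotine raised 7, led by Pdlim5 (1.16 ± 0.19, adjusted p = 0.00338), the integrin subunit Itgb3 (1.14 ± 0.21, adjusted p = 0.00525) and the LIM-domain protein Tes (0.98 ± 0.31, adjusted p = 0.038). It lowered 6, led by the integrin subunits Itgal (-1.34 ± 0.28, adjusted p = 0.00879), Itgb5 (-1.21 ± 0.30, adjusted p = 0.0165) and Itga4 (-1.20 ± 0.20, adjusted p = 0.00417). LPS raised 9, led by Tes (1.68 ± 0.31, adjusted p = 0.0136), Itgav (1.52 ± 0.26, adjusted p = 0.0115) and Pdlim1 (1.52 ± 0.27, adjusted p = 0.0117), and lowered 4, led by Tns1, Itgb5 and Itga6. The nicotine call of Tes and the LPS call of Itga6 were each lost with any of 6 libraries left out (adjusted p from 0.0613 to 0.112 and from 0.0694 to 0.127). After rescaling the LPS counts were 7 higher and 11 lower, and with quantile scaling 6 and 7. With each library left out, 2 to 4 genes rose with nicotine and 4 to 6 fell. Lpp, a relative of Zyx, was the only gene of the actin and adhesion lists past the threshold for genotype, higher in α7nAChR-/- cells by 1.03 ± 0.12 (adjusted p = 0.0186). Lpp lost that call with any single library left out except the wild type LPS one (adjusted p from 0.0683 to 0.111), and after rescaling (adjusted p = 0.0581) or with no filter (adjusted p = 0.0589).

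Mast cell markers also followed nicotine, and their sum was highest with nicotine and LPS together, at 751 FPKM in wild type and 572 in α7nAChR-/- cells. Their 6 genes summed to 299 to 751 FPKM in the 4 libraries with nicotine and to 157 to 281 in the 4 without, and none was at 0. Neutrophil markers summed to 22.9 to 87.1 FPKM with nicotine and to 34.2 to 163 without. In both genotypes their sum was lower with nicotine, at rest and under LPS. It was higher with LPS in both genotypes, with and without nicotine. Of the 5 neutrophil markers found, only 1 was among the tested genes. Mast cells and neutrophils carry actin and its binding proteins too, and their part in the nicotine and LPS differences was not tested. In bulk RNA, fewer cells of a type and less RNA per cell cannot be told apart.

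The genes whose profiles over the 8 libraries were most like Actb, by Pearson correlation of log2(FPKM + 1) among genes averaging 10 FPKM or more, were Tmem106a (0.994), Ppp6r1 (0.991), Casp8 (0.991), Dbnl (0.990) and Scfd1 (0.990). For Srf they were Sppl3 (0.991), Camsap2 (0.988), Gigyf2 (0.988), Metrnl (0.987) and Kansl1l (0.987). For Vcl they were Arg2 (0.973), Tuba1b (0.950), Rcn2 (0.946), Rbm7 (0.939) and H2-Q5 (0.935), the highest for Vcl being lower than the fifth for Actb or Srf. These are descriptions over 8 libraries that share their treatments and scaling, with no test. Dbnl encodes a drebrin-like actin-binding protein and Camsap2 a protein of microtubule minus ends.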

How the data were processed

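RNA of peritoneal macrophages was sequenced in 8 libraries, 1 for each combination of genotype, nicotine and LPS, grouped by their titles and characteristics. Libraries were made with a kit that does not mark strand, per the labels' protocols. Values are FPKM as deposited, 1 per library for each gene. Cuffdiff, Cufflinks, HISAT2, CASAVA 1.8 and the build mm10 are named in the submitters' processing notes, with no role or order. Which annotation and filters were used, and how libraries were scaled to each other, is not given in the sources used here. Whole reads could not be recovered from the low values, so the depth is unknown and no counting interval is given.

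Of 24341 lines, 2 repeated symbols were reduced to the line with the higher mean, leaving 24339. Genes averaging 1 FPKM or more were fitted as log2(FPKM + 1) with limma 3.58.1 (R 4.3.3), moderated with a trend, and called at a Benjamini-Hochberg adjusted p under 0.05. The additive model had terms for LPS, nicotine and genotype and 4 residual degrees of freedom. The interaction model added nicotine by LPS and had 3, with the 2 genotypes standing in for replicates. A fold change on this scale understates changes of low genes; folds in the text are ratios of FPKM. The procedure was tested on simulated data with independent noise in each library. For the average effects no nicotine by LPS interaction was planted, so the simulation does not show how calls fare under departure from additivity. Members and gene lists were chosen with earlier results of these data known. All 10 members were named; of each list, up to 3 genes each way for nicotine and LPS and 2 for genotype, by size among those called; a few of the genes picked, and 1 list, are not reported here. The alternatives were pseudocounts of 0.1 and 5, no filter, a filter of 5 FPKM, rescaling each library to a sum of 1000000, median centring, quantile scaling, the factor as the only term, and leaving out each library. Gene positions and transcripts were from GENCODE M21 and promoters from RefSeq, GRCm38.p6. Python 3.11.15, pandas 2.3.3 and Matplotlib 3.10.9 were used.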

Additional observations from a re-analysis of the deposited data

Results flagged for a closer look

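For 5 members the nicotine difference had opposite signs at rest and under LPS, and the signs were the same in both genotypes. The gap between the 2 conditions, averaged over genotypes in log2(FPKM + 1), was 3.19 for Zyx, 0.96 for Actg1, 0.78 for Myh9, 0.66 for Tln1 and 0.46 for Cfl1. Each gene was higher with nicotine at rest and lower with nicotine under LPS. Of all tested genes, 18.8% had opposite signs that both genotypes shared, in either sense. After rescaling each library to the same sum only Zyx kept opposite signs among these 5, and with quantile scaling none did. In the interaction fit over all genes Zyx, Actg1 and Myh9 passed the threshold and Tln1 and Cfl1 did not.

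For Pfn1 the LPS difference changed sign with nicotine, higher with LPS at rest and lower with LPS after nicotine in both genotypes, with a gap of 0.51. LPS signs were opposite with and without nicotine, in either sense, for 16.4% of tested genes. No member had opposite LPS signs after median centring, 3 did after rescaling (Actb, Vcl and Zyx) and 1 with quantile scaling (Zyx). Pfn1 did not pass in the interaction fit.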

How the results depend on the processing

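No paired analysis was possible because the labels give no replicate numbers and each group has 1 library. As deposited, 2824 genes were called for LPS (58.4% higher), 4842 for nicotine (52.1% higher), 115 for genotype and 3143 for the interaction (42.4% higher). Rescaling each library to the same sum gave 5265 for LPS (16.4% higher) and turned the interaction calls to 85.4% higher; quantile scaling gave 44.5% higher for LPS and 55.4% for the interaction, and the filter of 5 FPKM 29.9% for the interaction. With the factor as the only term the counts were 520, 2805 and 19 for LPS, nicotine and genotype. Without the filter, 55 genes were called for genotype. Leaving out each library in turn gave 807 to 2331 for LPS, 3674 to 4424 for nicotine, 13 to 172 for genotype and 1077 to 3698 for the interaction. Rescaling moved the median of all genes for LPS from 0.02 to -0.54 log2 and for the interaction from -0.11 to 0.48. Of 600 member values under these alternatives, 38 moved by at least the residual spread of their gene in the additive model. This limit is not the ± SE given above, and values that moved by less than it are not in the count. In addition, 1 more, the called LPS value of Cfl1, changed sign (-0.018 with quantile scaling). Of the 38, LPS values that had not passed also changed sign, for Actb (-0.17 with quantile scaling) and, with quantile scaling and rescaling, for Actg1 (-0.27 and -0.19), Flna (-0.42 and -0.46) and Tln1 (-0.21 and -0.38). Interaction values that had not passed changed sign too. With quantile scaling and rescaling they were 0.65 and 0.53 for Flna and 0.26 and 0.15 for Pfn1, and with rescaling 0.20 for Cfl1. Of the list genes, B2m for LPS was -0.49 with quantile scaling (adjusted p = 0.106). Of 33 list genes picked by the naming rule for LPS, up to 15 lost their call when 1 library was left out (the α7nAChR-/- vehicle library) and 7 with quantile scaling. Of 37 picked for nicotine, up to 7 did, and 1 with either scaling. The cause of these changes was not tested.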

Other observations

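Of 13 tubulin and intermediate filament genes tested, those of the other cytoskeletal systems, 8 rose with nicotine and none fell in limma's test, with a list median of 1.06 log2 beside -0.04 over all tested genes, and 9 had an unadjusted p under 0.05 (8 higher, 1 lower). Over all tested genes, 24.1% rose and 22.2% fell with nicotine, and 54.6% had an unadjusted p under 0.05. Of the 5 genes of the list that did not pass, Lmnb2 (-0.48), Tuba1a (-0.27) and Vim (-0.06) had log2 differences below 0. The largest rises were those of the tubulin Tuba4a (2.60 ± 0.17, adjusted p = 0.00041), the nuclear lamin Lmnb1 (2.30 ± 0.29, adjusted p = 0.00141) and Tuba1c (1.81 ± 0.20, adjusted p = 0.000971). The count of rises was 8 with the 3 other scalings, both other pseudocounts, no filter and each library left out, and 7 with the filter of 5 FPKM. With LPS 4 rose, led by Tubb6 (1.40 ± 0.40, adjusted p = 0.0421), and Lmna, another lamin, fell by 1.12 ± 0.18 (adjusted p = 0.00974). The LPS rises numbered 0 with quantile scaling, 1 after rescaling and 0 to 3 with each library left out. Tubb6 lost its call with any of 4 libraries left out (adjusted p from 0.11 to 0.135) and with no filter (adjusted p = 0.0775).

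Among 15 reference genes, 5 rose with nicotine, led by the translation factor Eef2 (1.10 ± 0.17, adjusted p = 0.00293) and the ribosomal genes Rplp0 (0.85 ± 0.13, adjusted p = 0.00294) and Rpl13a (0.85 ± 0.15, adjusted p = 0.00436), and Sdha fell by 0.54 ± 0.12 (adjusted p = 0.0115). Over all tested genes, 24.1% rose and 22.2% fell with nicotine. With LPS, B2m rose and Gusb fell, but B2m did not pass after rescaling (adjusted p = 0.361), with quantile scaling or with no filter (adjusted p = 0.104). Pgk1, a glycolytic enzyme, was higher in α7nAChR-/- cells by 1.28 ± 0.17 (adjusted p = 0.0262). It lost that call with any of 7 libraries left out (adjusted p from 0.0673 to 0.135) and with no filter (adjusted p = 0.054).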
